A study of Homo sapiens with 4 samples.

Results

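The expression of 43 autophagy genes was examined in H1299 cells, a human non-small-cell lung carcinoma line, after exposure to mercury chloride (HgCl2). The genes were taken as a fixed list of names that covers the machinery from the starting kinase to the lysosomal membrane, and every transcript of each gene was included. They account for 497 of the 227368 transcripts listed in the count table. A count in at least one column was found for 139 of these, and 51 transcripts of 27 genes reached a mean FPKM (the count divided by transcript length and by library depth) above 1 in EtOH or in HgCl2 and are called tested. The same limit left 17547 transcripts of the whole table.

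Cells of the HgCl2 group received 5 µM HgCl2 for 48 h, and cells of the EtOH group received ethanol, the solvent of HgCl2, for 48 h. The treatment text of the labels gives 5 µM HgCl2 for all 4 samples, whereas the titles, the treatment field and the study's methods set the EtOH columns apart as controls, which the labels name wild type. The cell line is the only model, it is a cultured tumour line without a donor-matched normal tissue, and 1 dose and 1 time were sequenced. The libraries were made from polyA RNA, so levels of mRNA are described here and not the flux of material through autophagy.

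Macroautophagy encloses cytoplasm, protein aggregates or damaged organelles in a double membrane, the autophagosome, which then fuses with the lysosome. The ULK1 kinase complex starts the process, a class III phosphatidylinositol 3-kinase marks the membrane, lipid transfer by ATG2 and ATG9 lets it grow, and 2 ubiquitin-like systems attach ATG12 to ATG5 and the ATG8 proteins (LC3 and GABARAP) to phosphatidylethanolamine. Cargo receptors such as SQSTM1 and BNIP3L tie the cargo to ATG8 proteins, and TFEB and TFE3 switch on autophagy and lysosome genes. Many of these proteins are also set by turnover and modification, which mRNA counts do not show.

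Each column held between 4720978 and 5053120 counts. The EtOH columns scattered around each other by less than counting alone gives, with a variance of 0.505 times the counting noise over 12382 transcripts with at least 20 counts, and the HgCl2 columns by 0.516 times. Over the autophagy transcripts the ratios were 0.434 (95% interval 0.288 to 0.726, n = 37) and 0.711 (0.477 to 1.17, n = 39), whereas the first EtOH and the first HgCl2 column differed by 15.6 times the counting noise (10.4 to 25.9, n = 38) over the autophagy transcripts and by 31.9 times (31.1 to 32.7, n = 11962) over all transcripts. The scatter within a group was thus below the sampling noise, so its columns were counted as 1 sample. With 1 sample a group there is no test between the conditions and no p-value is given. A transcript is called higher or lower when its mean count, after TMM scaling, differed at least 2-fold and the exact 95% counting interval of the ratio excluded equality. A group at or under 3 counts was set to 3 counts for this rule. These intervals cover counting error only, not differences between cultures, and fewer cells of a type and less RNA per cell cannot be told apart in bulk RNA. Among markers, vimentin (VIM) held 501 to 628 counts and keratin 18 (KRT18) 18 to 31 in every column, keratin 8 (KRT8) held 53 and 58 counts in EtOH and 4 and 4 in HgCl2, N-cadherin (CDH2) held 13 and 13 in EtOH and 1 and 2 in HgCl2, and the epithelial marker EPCAM and the leukocyte, hepatocyte, erythroid and alveolar markers PTPRC, ALB, HBB and SFTPC were at 0 in all 4 columns. The part of the KRT8 and CDH2 differences in the results that follow was not tested.

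The autophagy list did not move as a block. Of its 51 tested transcripts, 9 were called higher in HgCl2 (17.6%, exact 95% interval 8.4 to 30.9), beside 15.5% of all tested transcripts, and 9 were called lower (17.6%), beside 16.4%. The called transcripts belong to 12 genes, of which 8 had a higher transcript, 7 a lower one and 3 both. The median log2 fold change was -0.05 over the list and -0.11 over all tested transcripts. Thus the share of called autophagy transcripts was near that of the whole table in each direction.

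The same reading held where counts were deep. Of the 24 autophagy transcripts that averaged 30 counts or more over the 4 columns, 3 were higher (12.5%, 2.66 to 32.4), beside 15.6% of all transcripts of that depth, and 2 were lower (8.33%, 1.03 to 27.0), beside 9.55%. Their median was 0.26 on the log2 scale and that of all transcripts of that depth 0.21. Of the 27 transcripts under 30 counts, 6 were higher (22.2%), beside 15.5%, and 7 lower (25.9%), beside 21.1%. When the 4 columns were entered in edgeR as labelled, 9 autophagy transcripts were called higher, beside 16.6% of all tested, and 12 lower, beside 24.5%.

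**Figure D1:**
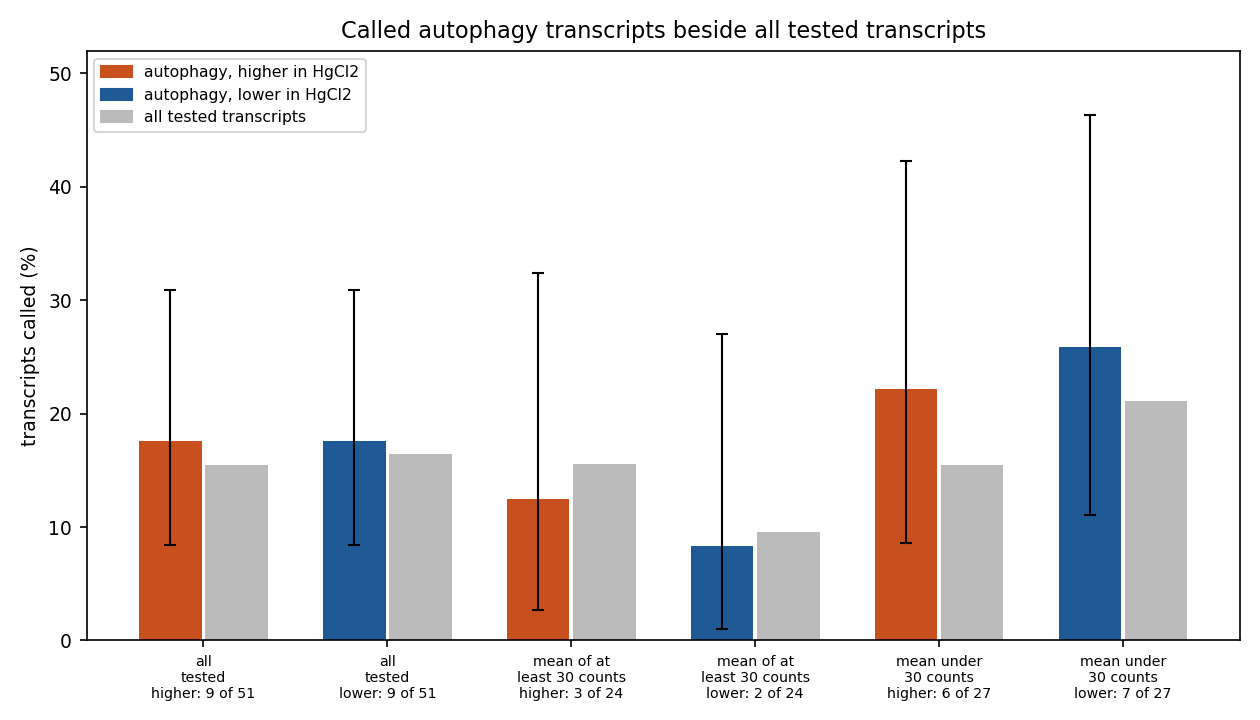
Share of tested transcripts called higher or lower in HgCl2 (percent, linear axis) for autophagy transcripts (coloured bars, with exact 95% binomial intervals) and for all tested transcripts (grey bars), over all transcripts and by mean count. Every grey bar lies inside the interval of the coloured bar beside it, for example 15.5% beside 17.6% for higher calls over all tested transcripts.

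Where a transcript's counts came from bears on every value that follows. The authors counted per transcript, and a base shared by several transcripts of a gene seldom gave counts. Of the 157 autophagy transcripts with at least 150 bases in a row that no other listed transcript covers, 65.6% had a count and they held 90.6% of the list's counts. Of the 204 without such a base, 1.96% had a count. In all, 10 transcripts held 87.4% of the counts of the list. A transcript's count is therefore a reading of its own stretch, and a gene can be without counts although it is transcribed. The annotation used for this (GENCODE 44) is later than that of the authors (Ensembl 98), and a few well-counted transcripts, such as the main SQSTM1 transcript with 10 bases of its own, have nearly none in it.

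In deposited FPKM, which divides by the whole transcript length, the most abundant autophagy transcripts in EtOH were BNIP3L (117), CALCOCO2 (77.0), SQSTM1 (52.5), VMP1 (46.8), LAMP2 (45.3), BNIP3 (30.8) and ATG12 (29.5). In HgCl2 the values were 151, 123, 68.9, 49.8, 58.4, 51.7 and 49.3. A single count was worth 1.25 times more FPKM in HgCl2 than in EtOH, so FPKM differences include this scale. The main VMP1 transcript, a retained-intron transcript at the end of the gene, had fewer counts in HgCl2 and yet a higher FPKM. The upper end of the list was thus cargo receptors, a VMP1 transcript and LAMP2, and the order between SQSTM1, VMP1 and LAMP2 in EtOH rests on values within a narrow range.

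The ULK1 complex, which starts autophagosome formation, had 4 tested transcripts, 1 called higher and 0 lower. Of all tested transcripts 15.5% were higher and 16.4% lower. ULK1, the kinase itself, held 77 and 83 counts in EtOH and 39 and 43 in HgCl2 on ENST00000321867. The log2 difference of -0.82 (95% interval -1.40 to -0.26) did not reach 2-fold, so it was not called. ATG13, which links the kinase to its scaffold, was tested only on the retained-intron transcript ENST00000528145. That transcript had 6 and 4 counts against 2 and 1, too few for a call (log2 -1.59, -5.70 to 1.23). Over all its transcripts ATG13 held 9 and 7 counts against 4 and 3 (log2 -1.05, -3.39 to 0.92).

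RB1CC1, the scaffold of the complex that is also known as FIP200, was counted mainly in HgCl2. Its retained-intron transcript ENST00000522957 had 0 and 0 counts in EtOH and 44 and 54 in HgCl2, which is at least 18.0-fold higher against a floor of 3 counts. The other tested transcript, ENST00000518211, held 7 and 10 counts in EtOH and 6 and 5 in HgCl2 (log2 -0.48) and was not called. The higher reading of RB1CC1 thus came from a transcript class that holds intron sequence and has no coding sequence assigned, and it made up 89.9% of the counts of the gene in HgCl2.

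Of the class III phosphatidylinositol 3-kinase complex, 5 transcripts were tested, 1 of them higher and 1 lower, both from PIK3C3. The shares over all tested transcripts were 15.5% higher and 16.4% lower. PIK3C3 had both calls of the complex. This gene encodes VPS34, the catalytic subunit that makes phosphatidylinositol 3-phosphate. A coding transcript, ENST00000589056 (chr18:42037750-42051313, plus strand, GRCh38), fell from 40 and 50 counts in EtOH to 9 and 11 in HgCl2 (log2 -2.03, -3.18 to -1.02). The retained-intron transcript ENST00000593098 (chr18:42025331-42081479) rose from 29 and 25 to 77 and 58 (log2 1.47, 0.80 to 2.17).

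PIK3C3 counts summed over its transcripts were 74.0 on average in EtOH and 86.5 in HgCl2 (log2 0.37, -0.10 to 0.84), with no call. Within the gene, ENST00000589056 went from 60.8% of the counts (exact 95% interval 48.8 to 72.0) to 11.6% (5.69 to 20.2). The retained-intron transcript went from 36.5% (25.6 to 48.5) to 78.0% (67.8 to 86.2). Such shares do not depend on how the columns are scaled. The own bases of ENST00000589056 numbered 1522, none of them in its coding sequence.

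The regulatory partners of VPS34 were not called. PIK3R4, the VPS15 subunit, held 436 and 426 counts in EtOH and 375 and 377 in HgCl2 (log2 -0.05, -0.26 to 0.15). UVRAG, a subunit of the complex that acts at endosomes, held 78 and 74 counts against 79 and 89 (log2 0.29, -0.18 to 0.75). BECN1, the Beclin 1 subunit, had ENST00000589636 as its only tested transcript, with 4 and 3 counts in EtOH and 0 and 0 in HgCl2. Summed over its 4 transcripts with a count, BECN1 held 25 and 32 counts in EtOH and 15 and 11 in HgCl2, a log2 difference of -0.99 (-2.06 to 0.0) that just missed the rule.

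The genes that supply membrane to the growing autophagosome had the most lower calls of the roles, with 5 of 7 tested transcripts lower, 0 higher and a median log2 of -1.27, beside 16.4% lower and 15.5% higher of all tested transcripts. At 30 counts or more the role had 1 lower of 3 transcripts and a median of -0.09. All transcripts of that depth had 9.55% lower and a median of 0.21. Of the 5 lower transcripts, 3 belong to VMP1, 1 to ATG2B and 1 to WIPI2, so the count rests on 3 genes. ATG2B, which moves lipid from the endoplasmic reticulum to the autophagosome, was deep, with 1198 and 1124 counts in EtOH and 1524 and 1613 in HgCl2 on ENST00000359933. This transcript was above its EtOH level by 0.58 on the log2 scale (0.47 to 0.69) and did not reach 2-fold.

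WIPI2, which binds phosphatidylinositol 3-phosphate and brings ATG16L1 to the membrane, fell from 41 and 33 counts to 16 and 16 on ENST00000288828 (log2 -1.07, -2.01 to -0.18). The value lay close to the limit of the rule, and without EtOH replicate 1 it was -0.90 and no longer called. It was also lost on the deposited FPKM scale (-0.89).

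VMP1 encodes a lipid scramblase of the endoplasmic reticulum, and the end of the gene overlaps the microRNA gene MIR21. The transcript with the most counts, the retained-intron transcript ENST00000592790 (chr17:59837931-59842255, plus strand), held 1139 and 1086 counts in EtOH and 944 and 949 in HgCl2 (log2 -0.09, -0.22 to 0.04) and was not called. This transcript spans the hairpin of miR-21 (chr17:59841266-59841337, RefSeq, GRCh38.p14), which ends 918 bases before the end of the transcript. The mature miR-21-5p is shown because most VMP1 counts lie on the stretch that holds it, with its seed (bases 2 to 8) in capitals.
hsa-miR-21-5p: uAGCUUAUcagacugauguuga
The mature microRNA has no polyA tail and was not measured in these libraries. ENST00000592790 covers only the end of the gene. Whether its counts come from VMP1 mRNA or from a precursor of the microRNA was not tested, so they are not a reading of VMP1 mRNA.

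A coding VMP1 transcript, ENST00000262291 (chr17:59707654-59842255), fell from 52 and 61 counts in EtOH to 15 and 8 in HgCl2 (log2 -2.15, -3.21 to -1.22). Its share of the counts of the gene went from 4.74% (3.60 to 6.10) to 1.20% (0.609 to 2.10), while that of ENST00000592790 went from 93.3% (91.8 to 94.7) to 98.4% (97.4 to 99.1). Every base of the coding transcript is covered by another transcript in GENCODE 44, so its counts could be split differently by another counting rule. Thus the VMP1 stretch around the microRNA stayed within its counting interval of equality while the less counted coding transcript was lower.

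The conjugation enzymes had 16 tested transcripts, of which 5 were called higher and 2 lower, beside 15.5% and 16.4% of all tested transcripts. ATG3, the enzyme that passes ATG8 proteins on to phosphatidylethanolamine, showed the pattern seen for PIK3C3. A coding transcript, ENST00000402314 (chr3:112532510-112561916, minus strand), fell from 65 and 59 counts in EtOH to 22 and 13 in HgCl2 (log2 -1.68, -2.54 to -0.90). The retained-intron transcript ENST00000494571 of ATG3 (chr3:112532522-112536767) rose from 20 and 24 to 57 and 52 (log2 1.45, 0.71 to 2.24).

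ENST00000402314 went from 72.5% of the counts of ATG3 (61.8 to 81.6) to 23.8% (14.6 to 35.2). The retained-intron transcript went from 25.7% (16.9 to 36.3) to 74.1% (62.6 to 83.7). The sum over the gene was 85.5 in EtOH and 73.5 in HgCl2, with a log2 difference of -0.07 (-0.54 to 0.39). The gene sum was therefore not called, while its transcripts changed in opposite directions. The retained-intron transcript covers only the 3′ end of the gene, and 70 of the 1488 own bases of ENST00000402314 lie in its coding sequence. Another coding transcript of ATG3, ENST00000283290, has 0 own bases and 0 counts. These shares therefore compare the stretches that were counted and do not give the coding mRNA of the gene.

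**Figure D2:**
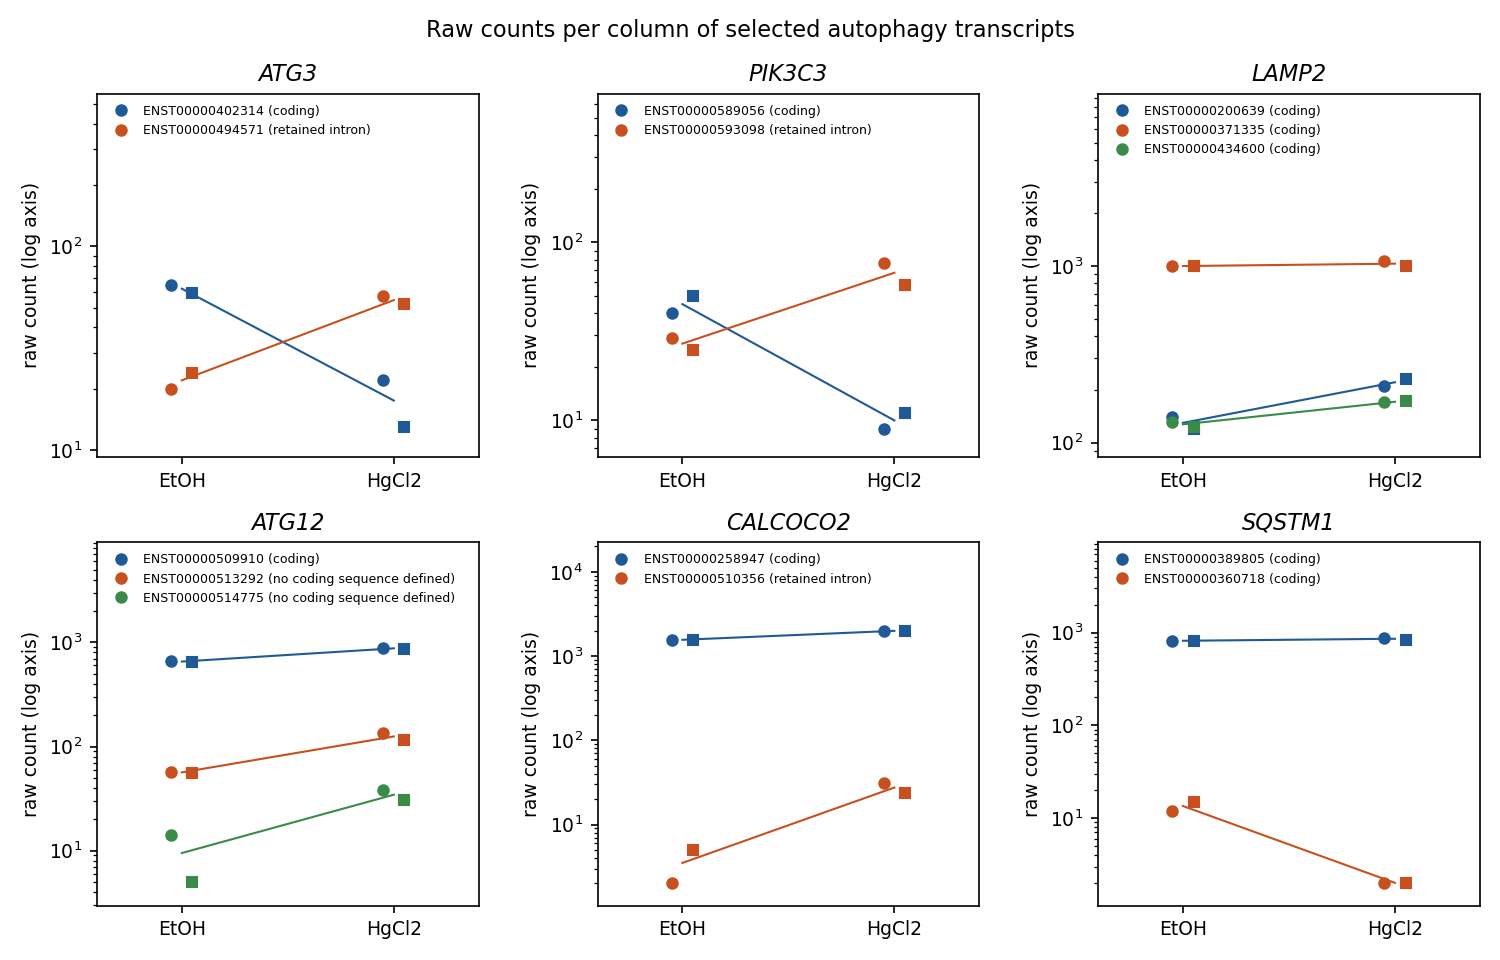
Raw counts per column (log axis) of selected transcripts of 6 autophagy genes in EtOH and HgCl2, with circles for replicate 1, squares for replicate 2 and lines joining the group means. For ATG3 and PIK3C3 the coding and retained-intron lines cross (ATG3 65 and 59 to 22 and 13 counts against 20 and 24 to 57 and 52), whereas the deepest transcripts of LAMP2, CALCOCO2 and SQSTM1 shift by less than 2-fold.

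ATG12, the ubiquitin-like protein that is joined to ATG5, had the most tested transcripts of the enzymes. Its main coding transcript ENST00000509910 (chr5:115828200-115841565, minus strand) held 661 and 648 counts in EtOH and 887 and 866 in HgCl2 (log2 0.56, 0.42 to 0.71), and was above EtOH but not 2-fold. Transcripts without a defined coding sequence went different ways. ENST00000513292 rose from 57 and 56 counts to 134 and 116 (log2 1.29, 0.82 to 1.77), and ENST00000514775 from 14 and 5 to 38 and 31 (log2 2.0, 0.94 to 3.21). ENST00000509598 of the same class, singled out here after its values were seen, held 60 and 57 against 43 and 48 (log2 -0.22, -0.81 to 0.36) and was not called. The share of ENST00000513292 in the gene went from 5.98% (4.55 to 7.68) to 9.47% (7.95 to 11.2), so the rise was not that of the whole gene alone.

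The enzymes ATG7 and ATG10 were not called on their main transcripts. ATG7, the activating enzyme of both systems, held 95 and 97 counts in EtOH and 67 and 54 in HgCl2 on ENST00000354449 (log2 -0.52, -1.01 to -0.04). ATG10, the enzyme that passes on ATG12, held 69 and 59 against 52 and 42 (log2 -0.30, -0.88 to 0.26). ATG16L1, which holds the ATG12 and ATG5 conjugate at the membrane, rose on the retained-intron transcript ENST00000472242 from 4 and 2 counts to 10 and 14 (log2 2.14, 0.25 to 4.61). That call was lost without HgCl2 replicate 2 (log2 1.88, with equality inside the interval). ATG4A, a protease that trims ATG8 proteins, was tested only on ENST00000474825, which has no defined coding sequence. It had 4 and 4 counts against 1 and 1, too few for a call. Over all its transcripts ATG4A held 5 and 6 against 1 and 1.

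The ATG8 proteins themselves showed no call in 4 tested transcripts, beside 15.5% higher and 16.4% lower of all tested transcripts. GABARAPL2 held 64 and 61 counts in EtOH and 55 and 58 in HgCl2 on ENST00000565985 (log2 -0.00, -0.55 to 0.54). That transcript has no defined coding sequence, and the coding transcript ENST00000037243 has 0 own bases and 0 counts. MAP1LC3B encodes LC3B, the common marker of autophagosomes. Its coding transcript ENST00000565788 held 7 and 10 counts against 8 and 6 (log2 -0.14, -1.81 to 1.49). GABARAPL1 held 5 and 10 against 5 and 7 on ENST00000421801 (log2 -0.18). The interval of ENST00000565788 extends past 2-fold on either side, so a change of that size was not detectable on this transcript. Another coding transcript of MAP1LC3B, ENST00000268607, has 0 own bases and 0 counts, so nothing can be said of it.

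The cargo receptors were the most deeply counted role. Of their 11 tested transcripts 1 was higher and 1 lower, beside 15.5% and 16.4% of all tested transcripts. The 5 receptor transcripts that averaged 30 counts or more all lay above 0, as did 4343 of all 7107 transcripts of that depth. The median log2 of the 5 was 0.50, beside 0.21 for all transcripts of that depth, and none of the 5 reached 2-fold. BNIP3L, a receptor on the outer mitochondrial membrane that marks mitochondria for removal, was the most counted member, with 2216 and 2240 counts in EtOH and 2280 and 2306 in HgCl2 (log2 0.18, 0.10 to 0.27). Its relative BNIP3 held 503 and 464 counts against 644 and 656 (log2 0.57, 0.40 to 0.74).

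CALCOCO2, the receptor NDP52 that binds bacteria and damaged mitochondria, held 1550 and 1566 counts in EtOH and 1997 and 1985 in HgCl2 on ENST00000258947 (log2 0.50, 0.40 to 0.59). SQSTM1, the p62 protein that carries ubiquitinated cargo, held 821 and 816 against 878 and 843 on ENST00000389805 (log2 0.22, 0.08 to 0.36). Both transcripts lay above EtOH by less than 2-fold. OPTN, optineurin, held 27 and 20 counts against 37 and 33 (log2 0.72, -0.08 to 1.54), and NBR1, a partner of p62, held 26 and 25 against 28 and 33 (log2 0.40, -0.41 to 1.22), both with equality inside the interval.

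Such small differences turn on the scale. Compared with the scaling used here, other scalings moved every log2 value by between -0.17 and 0.18. The 5 deep receptor transcripts stayed above 0 under each of them, with BNIP3L at 0.01 in the lowest case. Of the 24 deep autophagy transcripts, 15 lay above 0, beside 4343 of all 7107 transcripts of that depth. Under the other scalings between 15 and 18 of the 24 did so. The sign of the near-zero values of PIK3R4, GABARAPL2 and the main VMP1 transcript changed between scalings.

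**Figure D3:**
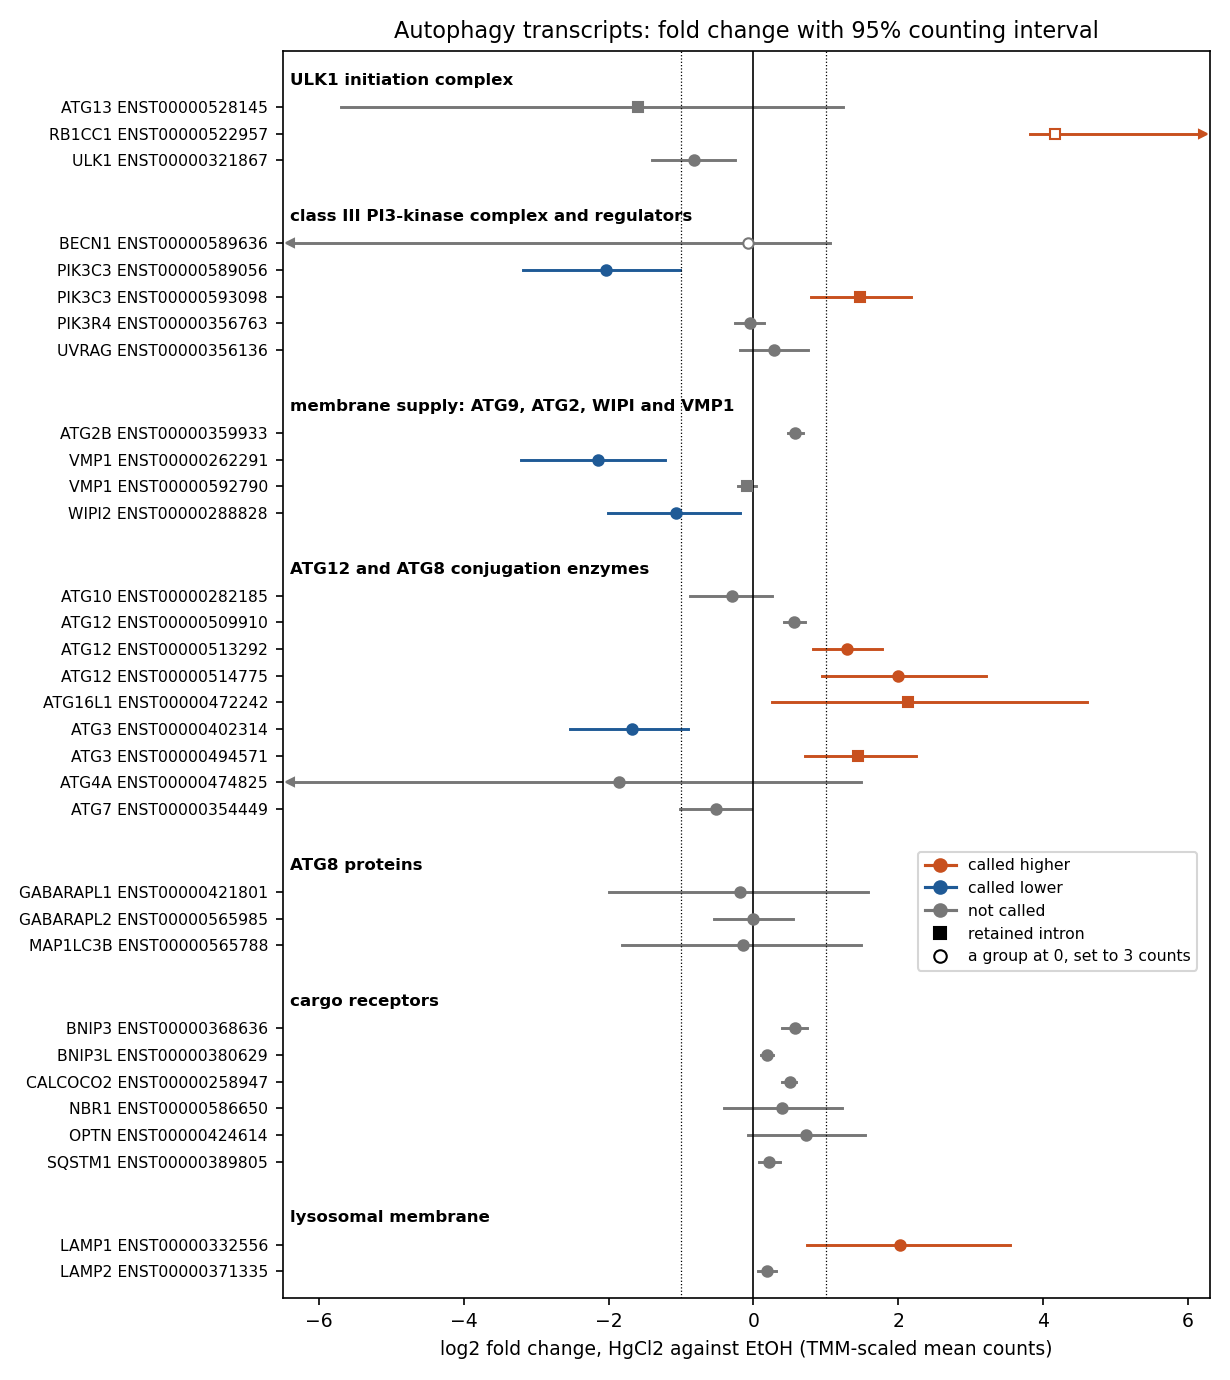
Log2 fold change of HgCl2 against EtOH for the named autophagy transcripts by role, with the mean counts scaled by TMM and lines for 95% counting intervals (arrows where the interval leaves the plot). Dotted lines mark 2-fold, squares mark retained-intron transcripts and open symbols mark a group at 0 counts that was set to 3 counts. Calls lie on both sides in the conjugation enzymes and in PIK3C3, while ATG8 proteins and the shown cargo receptors hold none.

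At the lysosomal membrane, LAMP1 and LAMP2 are the heavily glycosylated proteins that line the lysosome. LAMP1 rose on ENST00000332556 from 8 and 5 counts in EtOH to 27 and 21 in HgCl2 (log2 2.03, 0.74 to 3.54). Over all its transcripts LAMP1 held 23.0 counts on average in EtOH and 33.0 in HgCl2 (log2 0.66, -0.15 to 1.5), so the rise was that of 1 transcript and not shown for the gene.

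LAMP2 is spliced into variants that share the lumenal part and differ in the last coding exon, which encodes the end of the lumenal part, the membrane span and the short cytosolic tail. LAMP2A is known as the receptor of chaperone-mediated autophagy. The last coding exons (GENCODE 44, GRCh38, minus strand, 5′ to 3′) are shown because they are what separates the variants, with the codons of the glycine-tyrosine pair that sorts the proteins to lysosomes in capitals.
LAMP2A, ENST00000200639, chrX:120431323-120431462: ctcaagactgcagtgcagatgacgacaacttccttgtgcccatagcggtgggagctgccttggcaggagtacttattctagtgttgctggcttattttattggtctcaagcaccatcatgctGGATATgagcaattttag
LAMP2B, ENST00000371335, chrX:120439154-120439293: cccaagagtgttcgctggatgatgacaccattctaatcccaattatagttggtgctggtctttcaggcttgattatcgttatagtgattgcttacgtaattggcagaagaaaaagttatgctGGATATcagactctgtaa
LAMP2C, ENST00000434600, chrX:120428484-120428626: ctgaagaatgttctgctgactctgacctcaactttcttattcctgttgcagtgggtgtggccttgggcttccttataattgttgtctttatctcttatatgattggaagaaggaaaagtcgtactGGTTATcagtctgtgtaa
In each variant the pair starts 5 codons before the stop codon, and the proteins have 410, 410 and 411 residues.

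LAMP2B held most of the counts, with 1008 and 997 in EtOH and 1068 and 1000 in HgCl2 (log2 0.19, 0.06 to 0.31). LAMP2A had 139 and 120 counts in EtOH and 209 and 231 in HgCl2, and its log2 difference of 0.91 (0.59 to 1.23) did not reach 2-fold. LAMP2C had 131 and 123 against 169 and 172 (log2 0.57, 0.23 to 0.91). All 3 variants were above EtOH without a call, LAMP2A by the widest margin.

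The shares within LAMP2 moved with this. LAMP2A made up 10.3% of the counts of the gene in EtOH (8.66 to 12.1) and 15.4% in HgCl2 (13.6 to 17.4), intervals that do not overlap. LAMP2B went from 79.6% (77.3 to 81.8) to 72.6% (70.2 to 74.9), and LAMP2C from 10.1% (8.48 to 11.9) to 12% (10.3 to 13.8). The counts of LAMP2A and LAMP2B rest on own bases outside the coding sequence (4300 and 2582), so they read other sequence than the tails printed here. All LAMP2 transcripts together have 6941 own bases, which leaves few for LAMP2C. Its counts and share are therefore less securely its own.

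**Figure D4:**
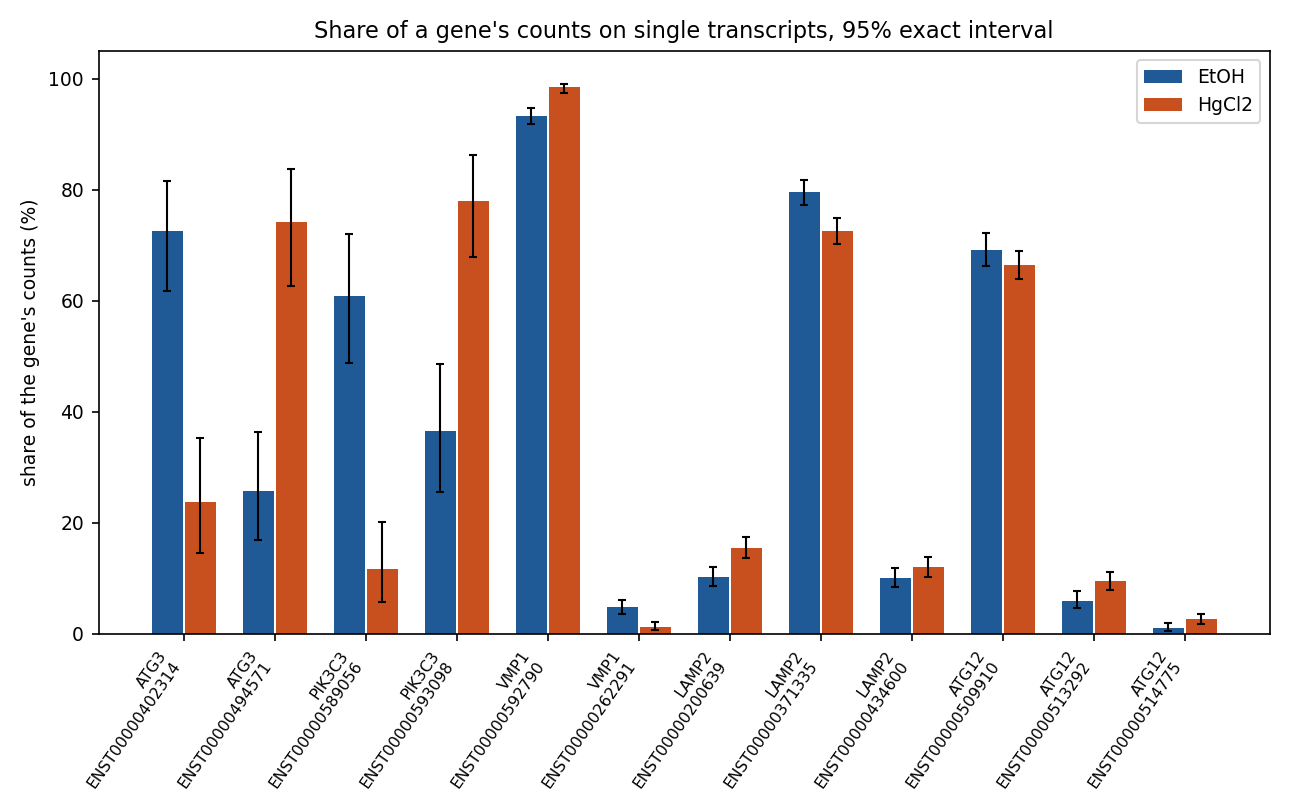
Share of a gene's counts held by single transcripts (percent, bars from 0) in EtOH and HgCl2, with exact 95% binomial intervals that cover counting error only. The shown coding transcripts of ATG3 (ENST00000402314) and PIK3C3 (ENST00000589056) fall from 72.5% to 23.8% and from 60.8% to 11.6%, whereas the LAMP2 shares shift by a few percentage points.

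The remaining 7 called transcripts had under 30 counts in the higher group, and they are named here after their values were seen. Those that were lower are ENST00000591782 of VMP1 (11 and 10 to 0 and 0 counts, at least 3.17-fold lower), ENST00000590850 of VMP1 (8 and 8 to 0 and 1), ENST00000554151 of ATG2B (7 and 9 to 0 and 0, at least 2.41-fold lower), ENST00000460291 of ATG7 (9 and 9 to 0 and 1) and ENST00000360718 of SQSTM1 (12 and 15 to 2 and 2). Those that were higher are ENST00000427759 of ATG7 (4 and 5 to 14 and 14) and ENST00000510356 of CALCOCO2 (2 and 5 to 31 and 24, log2 3.12, 1.52 to 5.26). The SQSTM1 transcript held 1.61% of the counts of its gene in EtOH and 0.232% in HgCl2, so these calls concern minor transcripts beside a main one that was not called.

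Calls differed by transcript class. Of 30 tested coding transcripts of autophagy genes, 2 were higher and 6 lower, beside 12.1% and 15.0% of all tested coding transcripts. Of 10 tested retained-intron transcripts, 5 were higher and 1 lower, beside 20.6% and 15.3% of all tested retained-intron transcripts. Among the 6 autophagy genes with both classes tested, ATG3 and PIK3C3 had a lower coding and a higher retained-intron transcript (33.3%), and ATG7 had the reverse (16.7%). Of 1179 such genes in the whole table, 4.66% had the former and 2.71% the latter. The autophagy numbers are small, and the difference from the table was not tested.

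Summed over transcripts, 39 of the autophagy genes held counts. RB1CC1 (8.5 to 54.5, log2 2.82, 1.77 to 4.06) and ATG16L1 (7.0 to 18.5, log2 1.55, 0.23 to 3.04) were called higher, and 0 were called lower. Both rises came from retained-intron transcripts, mainly ENST00000522957 of RB1CC1 and ENST00000472242 of ATG16L1. Every coding transcript of these genes had 0 counts in all columns, so the sums do not read their coding mRNA. Both genes are among the 27 with a tested transcript. Of the 11520 genes of the table with a tested transcript, 12% were higher and 17.3% lower. The other autophagy genes with counts have no tested transcript and often under 10 counts, and have no counterpart in that number. Thus the mixed calls of single transcripts mostly left the gene sums within 2-fold.

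No tested transcript was found for 16 of the 43 genes, namely ULK2, ATG101, ATG14, AMBRA1, ATG9A, ATG2A, WIPI1, ATG4B, ATG4C, ATG4D, ATG5, MAP1LC3A, GABARAP, TAX1BP1, TFEB and TFE3. Of these, ATG9A, ATG2A, ATG4D and MAP1LC3A had no count in any column. The transcription factors TFEB and TFE3 had at most 3 counts in a column, so nothing can be said of their mRNA from these counts.

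In the promoters of 37 autophagy genes found in RefSeq (250 bases before to 50 bases after the start, both strands), the letters CACGTG, the core of the site bound by TFEB and TFE3, occurred in 4 (10.8%), those of ATG14, ATG3, BNIP3 and LAMP1. They occurred in 7.43% of all 27305 promoters. The letters TGACNNNGC of the antioxidant response element occurred in 4 (10.8%), those of ATG101, CALCOCO2, LAMP1 and MAP1LC3B, beside 13.6% of all promoters. A match describes the letters only.

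The genes around the core machinery gave calls in both directions. Further receptors, fusion and other machinery were covered by 42 genes, of which 24 had tested transcripts. Of these 46 transcripts, 8 were higher and 7 lower (median log2 -0.08), beside 15.5% higher and 16.4% lower of all tested (median -0.11). VPS41, a subunit of the HOPS complex that tethers lysosomes to autophagosomes, fell on its coding transcript ENST00000310301 from 183 and 170 counts to 56 and 61 (log2 -1.45, -1.90 to -1.02). Its retained-intron transcript ENST00000482217 rose from 45 and 38 to 110 and 107 (log2 1.53, 1.0 to 2.08), as in ATG3. VPS39, another HOPS subunit, rose on ENST00000568357, which has no defined coding sequence (log2 1.38, 0.49 to 2.34). It fell on the retained-intron transcript ENST00000562258 (log2 -1.74, -2.82 to -0.78).

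The mTORC1 and AMPK regulators, which hold autophagy back or release it with nutrient supply, were 31 genes, of which 23 had tested transcripts. Of these 40 transcripts, 4 were higher and 4 lower (median log2 -0.09), beside 15.5% and 16.4% of all tested. MTOR, the kinase that inhibits ULK1 when nutrients are plentiful, fell from 118 and 132 counts in EtOH to 36 and 31 in HgCl2 on ENST00000361445 (log2 -1.76, -2.35 to -1.20). DEPTOR, a protein that binds and inhibits mTOR, rose from 53 and 59 to 140 and 162 on ENST00000286234 (log2 1.57, 1.12 to 2.04). LAMTOR1, which anchors mTORC1 regulators at the lysosome, fell from 73 and 75 to 13 and 16 on ENST00000545249 (log2 -2.21, -3.13 to -1.38). RRAGB, a GTPase that brings mTORC1 to the lysosome, rose on ENST00000474757 from 15 and 18 to 42 and 45 (log2 1.54, 0.70 to 2.46). That transcript has no defined coding sequence.

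Of 52 lysosomal genes, 22 had tested transcripts. Of these 47 transcripts, 3 were higher and 13 lower (median log2 -0.72), beside 15.5% higher and 16.4% lower of all tested. The saposin precursor PSAP rose on the coding transcript ENST00000633965 from 7 and 5 counts to 26 and 28 (log2 2.31, 1.01 to 3.88). The proton pump subunit ATP6V1D fell on the coding transcript ENST00000216442 from 67 and 74 counts to 23 and 23 (log2 -1.47, -2.22 to -0.78). The alpha-galactosidase gene GLA fell on the retained-intron transcript ENST00000479445 from 46 and 42 to 26 and 13 (log2 -1.03, -1.88 to -0.23). That value lay close to the limit of the rule. Of these lysosomal transcripts 11 averaged 30 counts or more, of which 0 were higher and 2 lower (median log2 -0.27), beside 15.6% higher and 9.55% lower of all transcripts of that depth (median 0.21).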

How the data were processed

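PolyA RNA of H1299 cells was sequenced, and the table of the whole series has 4 columns, assigned by the group and replicate number in their names. The deposited counts were made by the authors with Trim Galore, STAR 2.5.4b, GRCh38 and Rsubread per transcript of Ensembl 98; strand and multi-overlap options are not given in the sources used here. The deposited FPKM column of each sample was derived by the authors with DESeq2 1.26.0.

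Transcripts averaging over 1 FPKM in EtOH or HgCl2 were tested. Mean counts were scaled by TMM (edgeR 4.0.16, R 4.3.3), a group at or under 3 counts was set to 3, and ratios were given exact 95% Clopper-Pearson intervals. Column totals were 4720978 to 5053120. As the scatter within a group was below the sampling noise, edgeR's quasi-likelihood test, the planned comparison, was kept as an alternative, beside DESeq2 1.42.0 and limma 3.58.1 (adjusted p under 0.05 with 2-fold), other filters, scalings, floors and omitted columns. The fold rule was tested on simulated data.

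Named transcripts are, for each gene, the tested transcript with most counts, and every called transcript with at least 30 counts in the higher group. For the 3 further lists, up to 2 called transcripts with most counts in each direction are named, and 1 item that this covers is not reported here. The members and lists were chosen with earlier results of these data known. Annotation came from GENCODE 44, promoters and microRNAs from RefSeq. The labels do not say that columns came from separate cultures, while the study's methods call them independent biological replicates.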

Additional observations from a re-analysis of the deposited data

How the results depend on the processing

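The main counts were 9 higher and 9 lower transcripts in 12 genes, with a median log2 of -0.05. DESeq2 size factors and scaling by total counts gave these counts too. DESeq2 gave 9 higher and 10 lower in 12 genes, beside 2859 higher and 3046 lower of all 17547 tested transcripts. With edgeR 9 were higher and 12 lower in 13 genes, beside 16.6% and 24.5% of all tested. Without the FPKM filter 11 were higher and 8 lower (139 transcripts, median 0.06 beside -0.13). With at least 10 counts in every column, 3 were higher and 2 lower in 4 genes (30 transcripts, median 0.08 beside 0.01). With filterByExpr 5 were lower (41 transcripts, median 0.33 beside -0.01). On the deposited FPKM scale the median was 0.12, where that of all tested transcripts was 0.06. A floor of 10 counts left 4 lower calls (median 0.40, beside 0.08 for all tested). In limma voom 14 of the 51 transcripts were lower, beside 4917 of all 17547 tested. Counts summed per gene gave 2 higher, 0 lower and 2 genes (median 0.13, beside -0.08 for the table). Stricter filters and floors take away transcripts or contrasts at few counts by construction, and the cause of the other differences was not tested. Leaving out each replicate in turn gave 8 to 10 higher, 8 to 9 lower and 11 to 12 genes. The median was then -0.04 to -0.00, beside -0.16 to -0.12 for all tested. A called share over all transcripts is not given for the other filters, floors, scalings and omitted columns. The replicate numbers pair no columns (correlation of deviations 0.0172). With the replicate block edgeR gave 9 higher and 10 lower transcripts, beside 2855 and 3986 of all 17547 tested. Of 11 called named transcripts, 9 kept their call in every setting that could be run. WIPI2 lost it without the FPKM filter (-0.93), on the FPKM scale (-0.89) and without EtOH replicate 1 (-0.90), and ATG16L1 at a floor of 10 counts (0.41) and without HgCl2 replicate 2 (1.88). Depth limits the 27 transcripts under 30 counts. For the 16 genes without a tested transcript, few own bases can limit the counts as well as depth. ATG4D, for example, has at most 90 own bases on a transcript, and the parts of depth and counting were not separated. With 1 sample a group the spread between cultures is unknown.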
